A study of Mus musculus with 3 samples.

Results

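This account compares gene expression in sorted mature medullary thymic epithelial cells between an Aire knockout library (AireKO, genotype Aire–/–) and a control library (WT, genotype Sirt1fl/fl). The control mice carried a floxed Sirt1 gene without Cre, and the knockout mice are labelled with the Aire deletion alone, so the libraries also differ in the floxed allele. The other library of the series, Sirt1cKO (Sirt1fl/fl Foxn1-Cre, Cre being driven by the promoter of the thymic epithelial factor Foxn1), is given beside them for reference. All carry the strain label C57b/6. The mice were 6 weeks old, typically 3 were pooled for a library, and RNA of about 30000 cells with the surface phenotype EpCAM+ CD45- Ly51 low MHC class II high was amplified before hybridisation to whole-transcript arrays. Each genotype had 1 library. No difference below could therefore be set against a replicate spread, no test was possible, and every statement describes these libraries and not the genotypes.

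All genes on the 19 mouse autosomes with a probe set of a single gene symbol entered the comparison, 19105 of the 19937 genes named on the array. Of these, 12074 were measured, meaning that the brighter of the WT and AireKO values reached the median of all values, a log2 intensity of 6.81. Among them 10438 reached that level in both libraries, 842 only in WT and 794 only in AireKO. Genes past 2-fold in AireKO against WT were called lower or higher. A value at or below the 95th percentile of the olfactory receptor genes of its own library, log2 6.02 in WT, 6.89 in AireKO and 6.34 in Sirt1cKO, was treated as within background and replaced by that percentile. Its fold is written as "at least".

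Titles and genotype fields named the libraries, but the description field of the library titled AireKO names Sirt1cKO mice and that of the library titled Sirt1cKO names AireKO mice. The targeted genes do not settle this. The log2 intensity of Aire was 11.97 for WT, 11.55 for the AireKO title and 11.24 for the Sirt1cKO title, and that of Sirt1 was 11.40, 11.42 and 11.27. Where the probes lie relative to the deleted parts is not given in the sources used here, so these values check neither label. A list of antigens that the literature gives as Aire-dependent had 9 measured of 13 members, of which 5 were lower than in WT under the titles, or 4 after loess with 1 higher, and 1 was lower with the labels exchanged. AireKO means the library labelled AireKO throughout, and every direction rests on that label. With the labels exchanged, 187 genes (1.6%) were lower than in WT and 81 (0.695%) higher.

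Aire is a transcriptional regulator of mature medullary epithelium. It brings on low-level expression of many genes that otherwise belong to peripheral tissues, so that developing T cells which recognise those products can be deleted or diverted. It acts largely by releasing paused RNA polymerase together with a set of chromatin and elongation partners, and it does not read a fixed DNA motif. The same cells present antigen on MHC class II, secrete chemokines and, at later stages, take on features of skin, gut, airway or secretory cells.

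In AireKO, 903 measured autosomal genes were lower, 7.48% of those measured, and 284 were higher, 2.35%. These shares are the background against which each gene group below is read. The median difference, AireKO minus WT, was -0.20 on the log2 scale over the measured genes and 0.01 over all autosomal genes. The balance depended on scaling. Quantile normalization gave 643 lower (5.33%) and 373 higher (3.09%), and loess 602 (5%) and 387 (3.22%). A shift that set the median difference to 0 gave 529 (4.19%) and 541 (4.28%). Centring each library on its median over the measured genes gave 438 (3.56%) and 702 (5.7%). The median over measured genes was then -0.11, -0.09, 0.03 and 0.11 in the same order. Loess counts are given beside the main gene groups for that reason.

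Brightness mattered as well. With measured genes cut into 5 equal classes of mean intensity, those of the dimmest class were lower in 0.745% and higher in 3.48%, and those of the brightest were lower in 11.8% and higher in 2.94%. AireKO had the highest background of the 3 libraries, with 8250 autosomal genes within it against 5040 in WT. A dim gene therefore had less room to be called lower there. In the 2 brightest classes 10.6% and 11.8% of genes were lower. Most measured members of some lists below lay in these classes: mature medullary (17 of 19), NF-kB (22 of 23), MHC class I (17 of 20) and cytosolic ribosomal proteins (48 of 54). Their shares are better read against the bright classes.

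**Figure D1:**
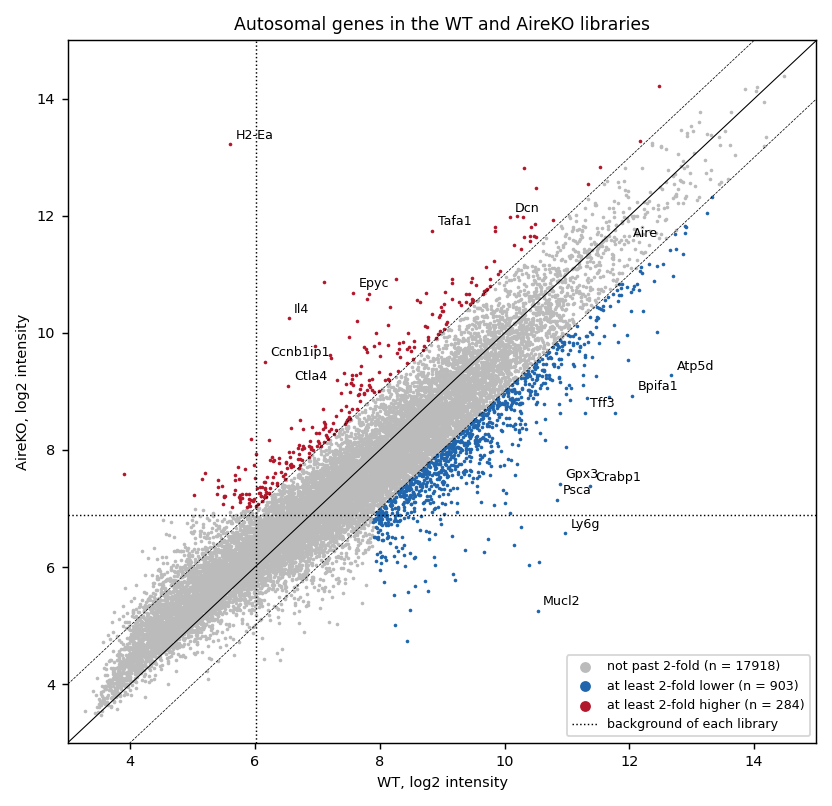
Each point is an autosomal gene, with the log2 intensity in WT on the x axis and in AireKO on the y axis, 1 library each. The dotted lines mark each library's background, the dashed lines a 2-fold difference and the solid line equality. The 903 lower genes (blue) start above a WT value of about 1 log2 unit over the AireKO background, and H2-Ea stands alone at the upper left.

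Of 19 listed markers of mature medullary epithelium, all measured, 0 lay within background in WT and 1 in AireKO. Of these markers 6 were lower in AireKO, or 2 after loess, and the median difference was -0.57. The MHC class II gene H2-Aa stood at 13.70 in WT and 13.05 in AireKO, Epcam, which encodes the sorting antigen EpCAM, at 11.01 and 10.49, and Fezf2, a transcription factor of medullary epithelium, at 11.97 and 11.96. Cd80, a costimulatory ligand of mature cells, stood at 11.82 and 12.58. None of these 4 genes, which were chosen after their values were seen, differed by 2-fold, whereas the keratin gene Krt5, at 11.52 and 10.43, did.

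Sex-linked genes differed between the libraries, and the labels give no sex. Xist read 12.17 in WT against a background value of 6.75 in AireKO, and Y-linked Eif2s3y read 9.75 in AireKO against a background value of 4.23 in WT. In Sirt1cKO both were above background, Xist at 11.46 and Eif2s3y at 8.92. X and Y genes were left out for this reason, but an effect of sex on autosomal genes cannot be told apart from genotype. The same holds where Sirt1cKO is set beside WT and AireKO below. Since RNA was pooled over sorted cells, fewer cells of a kind and less RNA per cell cannot be told apart either.

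A few short promoter stretches are shown here because the lower genes differed from the other measured genes in this region, as given further on. Each runs from 70 bases before to 30 bases after the RefSeq start site in GRCm38.p6, 5′ to 3′ on the gene's own strand. The letters TATAAA are in capitals where they lie 45 to 15 bases before the start, the place of a TATA box. The first 4 genes were lower in AireKO and are shown because they hold these letters there, Ppy and Irf7 being taken from the hormone and interferon lists. Most lower genes do not. Among the leading decreases named below, 3 of the 11 with a promoter sequence that stayed above background and 1 of the 8 within background in AireKO held them. Gal was lower, and Il4 and Epyc were higher, and these 3 do not hold them in that place.

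Bpifa1 (chr2:154142810-154142909, plus strand): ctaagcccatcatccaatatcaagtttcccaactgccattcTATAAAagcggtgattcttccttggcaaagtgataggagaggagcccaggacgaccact
S100a8 (chr3:90669001-90669100, plus strand): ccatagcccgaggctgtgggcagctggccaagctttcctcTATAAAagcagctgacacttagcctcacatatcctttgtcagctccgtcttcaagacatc
Ppy (chr11:102101290-102101389, minus strand): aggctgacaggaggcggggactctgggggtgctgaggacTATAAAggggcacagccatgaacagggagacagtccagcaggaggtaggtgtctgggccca
Irf7 (chr7:141266395-141266494, minus strand): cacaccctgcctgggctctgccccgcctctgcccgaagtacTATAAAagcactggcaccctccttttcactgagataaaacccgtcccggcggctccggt
Gal (chr19:3414515-3414614, minus strand): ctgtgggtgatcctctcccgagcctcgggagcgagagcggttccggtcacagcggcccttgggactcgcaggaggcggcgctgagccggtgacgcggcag
Il4 (chr11:53617309-53617408, minus strand): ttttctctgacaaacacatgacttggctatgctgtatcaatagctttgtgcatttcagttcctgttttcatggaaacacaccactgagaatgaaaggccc
Epyc (chr10:97643998-97644097, plus strand): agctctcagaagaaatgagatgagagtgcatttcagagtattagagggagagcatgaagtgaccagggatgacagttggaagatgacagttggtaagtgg

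Among genes above background in both libraries, Crabp1, which encodes a cytoplasmic retinoic acid binding protein, had the largest decrease. It read 11.37 in WT, 7.39 in AireKO and 9.48 in Sirt1cKO on the log2 scale, a difference from WT to AireKO of -3.99. Psca, a glycolipid-anchored surface protein of stomach and prostate epithelium, stood at 10.84, 7.15 and 11.13. Thus Crabp1 was lowest in AireKO and intermediate in Sirt1cKO, while Psca was low in AireKO alone. Gpx3, the secreted glutathione peroxidase, stood at 10.89, 7.42 and 8.35, and Atp5d, a subunit of the mitochondrial ATP synthase, at 12.67, 9.28 and 10.56. Both resembled Crabp1 in that Sirt1cKO lay between the others.

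Several secreted products followed. Gal, the precursor of the neuropeptide galanin, stood at 10.09 in WT, 6.92 in AireKO and 8.97 in Sirt1cKO. Saa3, an acute-phase apolipoprotein, stood at 11.78, 8.64 and 11.06, and Bpifa1, a secreted airway lining protein, at 12.05, 8.93 and 11.93. For Saa3 and Bpifa1 the Sirt1cKO value was within 1 log2 unit of WT. Ppbp, a platelet chemokine precursor, stood at 9.82, 7.06 and 9.56, and S100a8, a calcium-binding alarmin of neutrophils and stressed epithelium, at 10.01, 7.10 and 8.19. Cyp2f2, a P450 enzyme of airway club cells, stood at 10.98, 8.05 and 10.60, and Gabrp, an epithelial GABA receptor subunit, at 11.67, 8.91 and 11.66. Cytl1, a secreted cytokine-like protein, stood at 10.03, 7.27 and 8.87.

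In a further 8 genes the AireKO value lay within background, so that only a bound can be given. Ly6g, a surface gene best known from neutrophils, was at least 16.9-fold lower, with log2 values of 10.97 in WT, 6.58 in AireKO and 9.62 in Sirt1cKO. Mucl2, a mucin-like gene, read 10.53 in WT, 5.25 in AireKO and 10.24 in Sirt1cKO, at least 12.5-fold lower in AireKO. Tac2, the precursor of neurokinin B, was at least 11.3-fold lower, from 10.39 to 6.03, against 9.92. In Mucl2 and Tac2 the signal was thus lost in AireKO alone. The relaxin-family peptide gene Rln3 was at least 10.3-fold lower, the lactoferrin gene Ltf at least 9.58-fold and the carbonic anhydrase gene Car4 at least 7.21-fold. Ly6a2 and Cmbl, a hydrolase gene, were at least 12.7-fold and at least 6.88-fold lower.

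**Figure D2:**
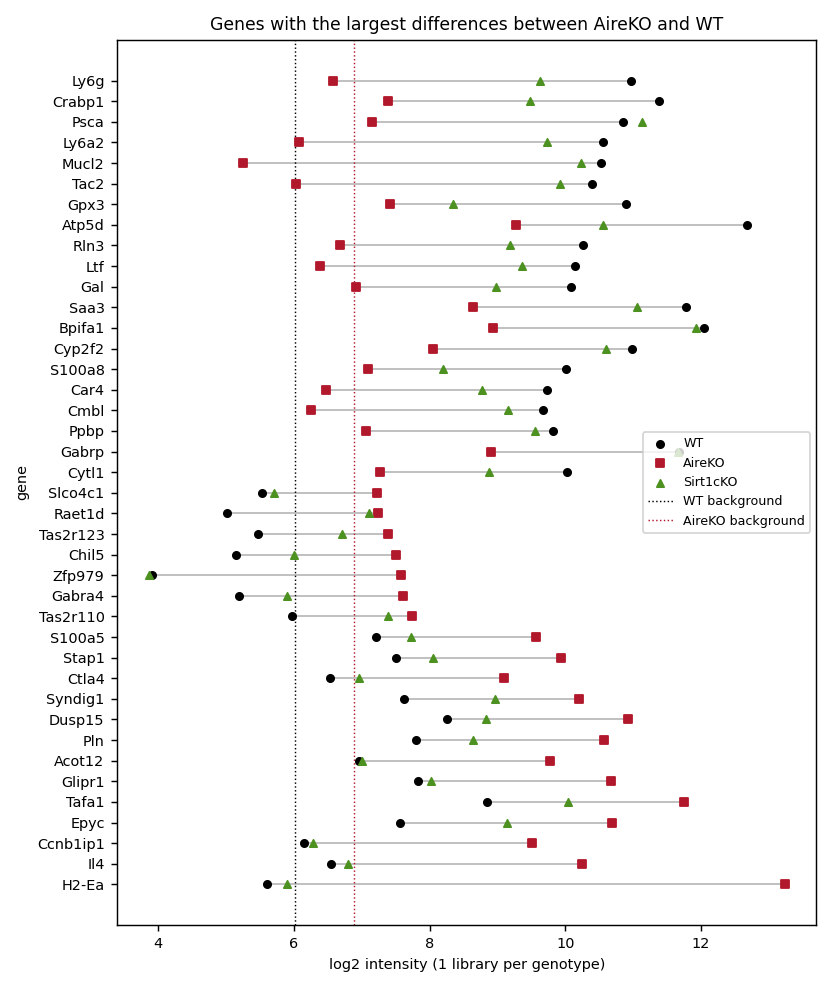
Log2 intensity (x axis) of the genes with the largest differences (y axis), 1 library per genotype, with WT as circles, AireKO as squares and Sirt1cKO as triangles. Dotted lines mark the WT and AireKO backgrounds. Sirt1cKO lay close to WT for Mucl2, Bpifa1, Gabrp and Psca and between WT and AireKO for Crabp1, Gpx3 and Atp5d.

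Families of epithelial products differed in how many members were lower, set against the 7.48% of all measured genes. At the low end, metalloproteases were lower in 0 of 35 and higher in 0, and serpins and other protease inhibitors were lower in 4 of 42 (9.52%) and higher in 2. Of 20 measured mucin and trefoil genes, which form and stabilise mucus, 9 were lower and 0 higher, with 9 lower after loess too. Tff3, an intestinal trefoil factor, stood at 11.29 in WT, 8.64 in AireKO and 10.49 in Sirt1cKO. Clca1, secreted by goblet cells, stood at 10.56, 8.29 and 10.32. Muc5ac, the gel-forming mucin of stomach and airway, was at least 5.57-fold lower, from 9.36 to 6.29. Each of these genes was below WT by more in AireKO than in Sirt1cKO.

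The Ly6 and Psca family encodes small glycolipid-anchored proteins, many of them surface markers of epithelial and blood cells. Of its 25 measured members, 10 were lower (40.0%) and 1 was higher, and 8 were lower after loess. Lypd2 stood at 10.88 in WT, 8.64 in AireKO and 11.52 in Sirt1cKO. Over measured members the median was -0.61 in AireKO minus WT, or -0.49 with values within background set to that level, and 0.18 in Sirt1cKO minus WT. With dim members included, 35 in all, these medians were -0.27, which turned positive under median centring, and 0.10. Because several members are close copies, probes may read more than 1 of them, and single Ly6 values are uncertain.

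Of 38 measured keratin genes, the intermediate filament proteins of epithelium, 12 were lower (31.6%) and 0 higher, or 8 lower after loess. Krt1, of differentiated epidermis, stood at 9.60 in WT, 7.56 in AireKO and 8.89 in Sirt1cKO, and Krt7, of glandular epithelium, at 10.98, 9.06 and 9.72. Krt19 stood at 9.59, 7.77 and 9.23. Keratins of stratified and of simple epithelium were thus both among the lower genes. Cornified envelope genes were lower in 3 of 32 (9.38%), among them the skin protease gene Asprv1, at 11.46, 9.27 and 10.09. That share lay near the background.

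Hormone and neuropeptide genes were lower in 12 of 50 measured members, again 12 after loess, and 0 were higher. Ppy, pancreatic polypeptide, stood at 10.64 in WT, 8.16 in AireKO and 10.12 in Sirt1cKO. Sst, somatostatin, stood at 10.35, 8.37 and 9.53. Antimicrobial and lectin proteins were lower in 17 of 62 (27.4%) and higher in 5, or 18 and 3 after loess, a list that moved in both directions. Kallikreins and transmembrane serine proteases were lower in 9 of 43 (20.9%), or 7 after loess. Ctrb1, a chymotrypsinogen, read 9.98 in WT, 7.32 in AireKO and 8.06 in Sirt1cKO. In the same list Tmprss11d, an airway trypsin-like protease, was higher, at 7.42, 9.31 and 7.45.

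Beyond these tissue products, lists of housekeeping and metabolic genes were examined. Lysosomal genes, whose products digest endocytosed and self proteins, were lower in 13 of 41 measured members (31.7%), and in 7 after loess. The cathepsin gene Ctsd stood at 10.88 in WT, 9.16 in AireKO and 10.32 in Sirt1cKO. Ctsl, which encodes a cathepsin of cortical epithelium, stood at 10.49, 8.95 and 9.59. Atp6v1b2, a subunit of the proton pump that acidifies lysosomes, stood at 11.19, 9.68 and 10.17. All 3 were lowest in AireKO. Ctsh, an aminopeptidase cathepsin, was about equally low in both knockout libraries, at 11.16, 9.83 and 9.80.

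Genes of the secretory pathway through the endoplasmic reticulum were lower in 11 of 55 (20.0%), but in 2 after loess. Of these 55, 52 lay in the 2 brightest classes, in which 10.6% and 11.8% of all measured genes were lower. Calr, the chaperone calreticulin, stood at 12.65 in WT, 11.42 in AireKO and 11.97 in Sirt1cKO, and Cope, a coatomer subunit, at 10.27, 8.81 and 9.49. Small GTPases, many of them regulators of vesicle traffic, were lower in 10 of 77 (13.0%), or 7 after loess. Rab7, of late endosomes, stood at 10.48, 9.02 and 9.66, and Rab1b, of early secretory traffic, at 10.51, 8.78 and 9.35. Autophagy genes were lower in 2 of 33 (6.06%), near the background.

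Cholesterol synthesis genes were lower in 6 of 19 measured members (31.6%) and in 4 after loess, with a median difference of -0.91. Hmgcs1, the synthase that precedes the committed step, stood at 9.80 in WT, 7.98 in AireKO and 9.36 in Sirt1cKO. Msmo1, a sterol oxidase, stood at 9.35, 7.65 and 8.82, and Insig1, a feedback regulator of the pathway, at 9.29, 8.03 and 8.78. In each the Sirt1cKO value was nearer to WT than to AireKO. Fatty acid genes were lower in 6 of 35 (17.1%), or 3 after loess, with the acyl-CoA dehydrogenase gene Acadm at 9.34, 7.82 and 8.80.

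Antioxidant enzymes were lower in 11 of 41 (26.8%), and in 12 after loess. Beside Gpx3, the glutathione peroxidase genes Gpx2, of gut epithelium, and Gpx4, which reduces lipid peroxides, were lower. Gpx2 stood at 9.62 in WT, 7.10 in AireKO and 9.39 in Sirt1cKO, and Gpx4 at 10.87, 8.79 and 9.53. Gsto1, a glutathione transferase, stood at 10.20, 7.75 and 10.04. Gpx2 and Gsto1 were low in AireKO alone, while Gpx4 was reduced in Sirt1cKO as well. Aldehyde, alcohol and keto reductases and dehydrogenases were lower in 7 of 25 (28.0%), or 5 after loess, among them Adh1, which acts on retinol and other alcohols, at 10.46, 8.89 and 10.35.

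In central metabolism, a list of tricarboxylic acid cycle and associated genes was lower in 4 of 22 (18.2%), or 3 after loess. The 4 were Cs, Idh3b, the cytosolic isocitrate dehydrogenase gene Idh1 and the pyruvate dehydrogenase gene Pdhb. A list of glycolysis and lactate genes was lower in 4 of 20 (20.0%), or 2 after loess. The 4 were Eno3, Ldha, Ldhb and the lactate transporter gene Slc16a1. Citrate synthase, Cs, stood at 11.10 in WT, 9.46 in AireKO and 10.15 in Sirt1cKO, and the lactate dehydrogenase gene Ldhb at 10.47, 9.15 and 9.96. Oxidative phosphorylation genes were lower in 8 of 74 (10.8%) and higher in 3, or 5 and 5 after loess. Their median of -0.20 turned positive under median centring. Of the 74, 62 lay in the 2 brightest classes, so the share lower was near that of bright genes. Atp5d thus stood apart from most members of its own list. Solute carriers were lower in 30 of 232 (12.9%) and higher in 3, or 22 and 3 after loess, led by the mitochondrial carrier gene Slc25a11, at 11.06, 9.05 and 9.69, and the zinc transporter gene Slc39a4, at 9.36, 7.59 and 8.76.

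**Figure D3:**
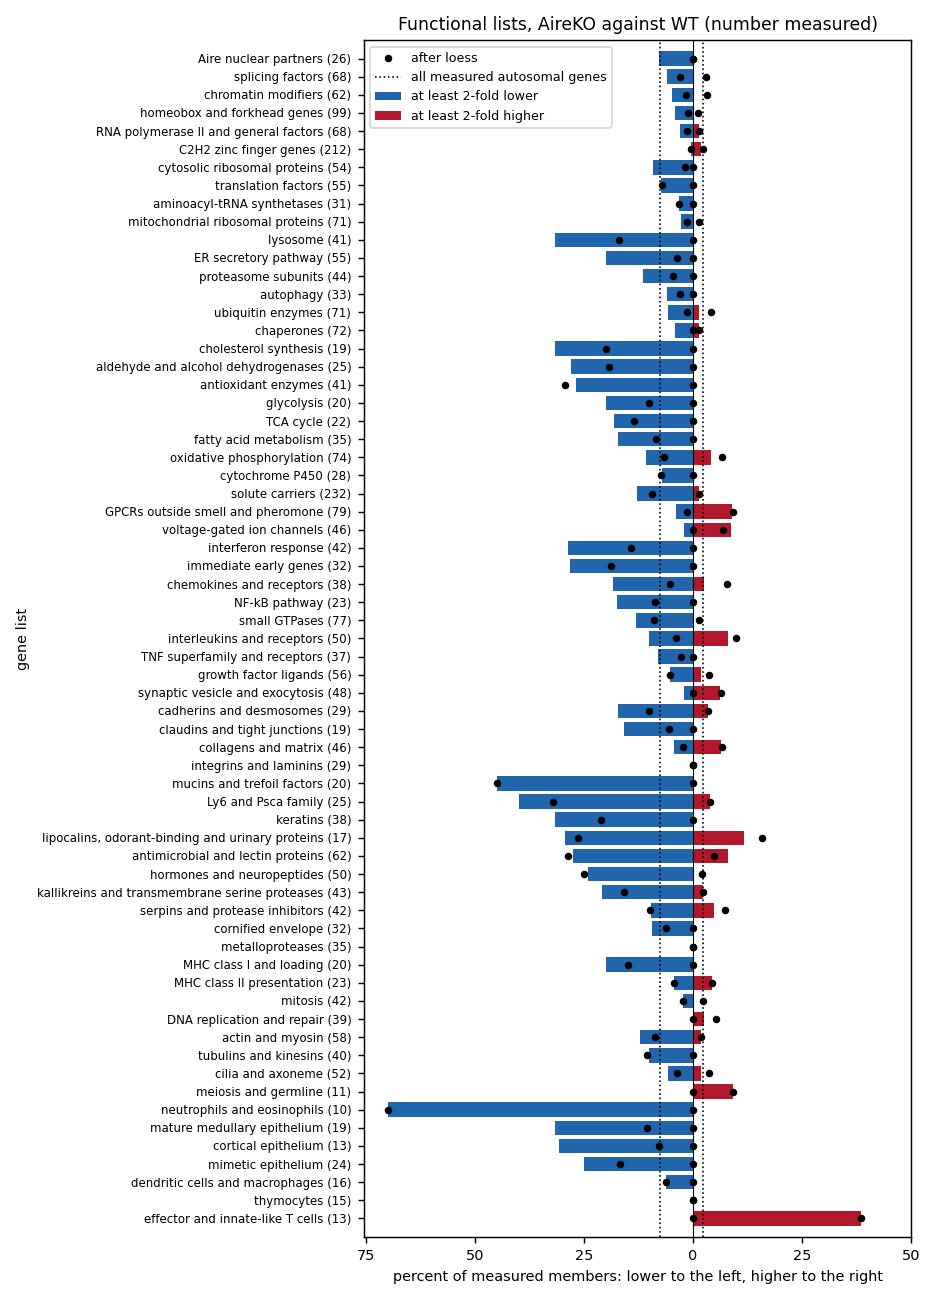
Percent of the measured members of each gene list (y axis, number measured in brackets) that were at least 2-fold lower (blue, to the left) or higher (red, to the right) in AireKO than in WT, for lists with 10 or more measured members. Black points give the shares after loess, and dotted lines the 7.48% and 2.35% of all measured autosomal genes. Mucins, Ly6 genes, keratins, lysosome, cholesterol synthesis and interferon genes reached past 25% on the lower side, and zinc fingers, chromatin modifiers and metalloproteases stayed inside the line of all genes. Zinc finger genes were mostly dim, with little room to be called lower.

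Signalling lists differed among themselves. Interferon response genes, which are active in medullary epithelium without infection, were lower in 12 of 42 (28.6%), or 6 after loess, and 0 were higher. Irf7, a transcription factor of that response, stood at 9.65 in WT, 7.62 in AireKO and 9.0 in Sirt1cKO. Ifit3, an RNA-binding effector, stood at 9.07, 7.57 and 8.53, and Stat2, which carries the interferon signal to the nucleus, at 8.81, 7.50 and 8.16. For all 3 the Sirt1cKO value lay between the others and nearer to WT.

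Immediate early genes, which respond within minutes to signals and to cell handling, were lower in 9 of 32 (28.1%), or 6 after loess. Gadd45g stood at 9.94 in WT, 7.98 in AireKO and 8.92 in Sirt1cKO, and Jun at 12.08, 10.80 and 11.70. NF-kB pathway genes, which act downstream of the receptors that mature these cells, were lower in 4 of 23 (17.4%), or 2 after loess. Nfkbie, an inhibitor of the pathway, stood at 10.41, 8.99 and 9.75, and Relb, needed for medullary development, at 9.19, 8.19 and 8.53, just past 2-fold. Chemokines and their receptors were lower in 7 of 38 (18.4%) but in 2 after loess. Ccl22, a chemokine of mature medullary cells, stood at 10.77, 9.19 and 10.66. Among growth factor ligands, lower in 3 of 56, the Notch ligand gene Jag1 stood at 9.48, 7.45 and 8.91 and Nrg1, an ErbB ligand, was higher, at 9.84, 11.81 and 10.05.

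Among antigen presentation genes, MHC class I and loading genes were lower in 4 of 20 (20.0%), or 3 after loess, with Tapbp, the loading chaperone tapasin, at 10.91 in WT, 9.47 in AireKO and 10.17 in Sirt1cKO. Of 23 MHC class II presentation genes, Ctsl was lower and H2-Ea higher. H2-Ea encodes the alpha chain of the class II E molecule and is not expressed in C57BL/6 mice, whose copy lacks its promoter. It stood at 5.60 in WT, 13.23 in AireKO and 5.90 in Sirt1cKO, at least 148-fold higher. Its partner H2-Eb1 stood at 13.47, 12.59 and 12.80, so the beta chain gene was not higher. A different genetic background at this or other loci cannot be told apart from the Aire genotype with these libraries.

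Among nuclear genes, the small histone list had 2 of 7 measured members lower, or 1 after loess. These were the linker histone genes H1f2, at 10.38 in WT, 8.88 in AireKO and 9.76 in Sirt1cKO, and H1f5, at 9.50, 8.39 and 9.12. The larger nuclear lists were near or below the background. Of 26 measured genes for Aire's nuclear partners, 2 were lower (7.69%), near the share of all genes, and 0 after loess. These were the RNA-binding gene Hnrnpl, at 10.05 in WT, 9.0 in AireKO and 9.59 in Sirt1cKO, and Hexim1, an inhibitor of the elongation factor P-TEFb, at 8.42, 7.40 and 7.79. Chromatin modifiers were lower in 3 of 62 (4.84%), with Tet3, a methylcytosine dioxygenase, at 8.96, 7.21 and 8.30. RNA polymerase II and general factors were lower in 2 of 68 and splicing factors in 4 of 68. C2H2 zinc finger genes were lower in 1 of 212 (0.472%) and higher in 4. Only 40 of these 212 lay in the 2 brightest classes, and the median WT value over the 337 on the array was 6.93. Most zinc finger genes thus had little room to be called lower, and in the dimmest class 0.745% of all measured genes were. A list of homeobox, forkhead and some other factors was lower in 4 of 99 (4.04%). These were Foxn1, at 10.47, 9.43 and 9.99, Foxa1, of endoderm-derived epithelium, at 9.96, 8.32 and 9.67, Foxq1 and Klf9. Klf9 is a zinc finger gene that was not in the zinc finger list.

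Lists of protein synthesis, protein breakdown and cell division gave the following counts. Cytosolic ribosomal proteins were lower in 5 of 54 (9.26%) and in 1 after loess, and mitochondrial ribosomal proteins in 2 of 71. Translation factors were lower in 4 of 55 (7.27%), again 4 after loess. Eif5a, which helps ribosomes through difficult peptide bonds, stood at 11.26 in WT, 9.12 in AireKO and 9.13 in Sirt1cKO, equally low in both. Proteasome subunits were lower in 5 of 44 (11.4%), or 2 after loess, with Psmb4 at 11.27, 9.45 and 9.97. Of these 44, 38 lay in the 2 brightest classes, in which 10.6% and 11.8% of all measured genes were lower, so the share was near that of bright genes. Mitosis genes were lower in 1 of 42, and DNA replication and repair genes in 0 of 39, with 1 higher. Integrins and laminins had 0 of 29 members called in either direction.

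Markers of epithelial subsets were counted in the same way. Mature medullary markers were lower in 6 of 19 (31.6%), but in 2 after loess, with the tight-junction gene Cldn4 at 11.87 in WT, 10.64 in AireKO and 11.59 in Sirt1cKO. Summed over the list, intensity came to 54853 for WT, 37202 for AireKO and 44219 for Sirt1cKO. Markers of mimetic cells, the medullary cells that resemble peripheral cell types, were lower in 6 of 24, or 4 after loess. Gp2, an uptake receptor of microfold cells, stood at 11.40, 9.59 and 11.48. Cortical markers were lower in 4 of 13, or 1 after loess. The part of a shift in epithelial subsets in the other lists was not tested.

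Neutrophil and eosinophil genes, from cells that the CD45- sort should leave out, were lower in 7 of 10 measured of 17 on the array. The share of all measured genes was 7.48%. Ly6g, Ltf, Ngp, Mpo and Epx lay below 6.81 in AireKO and counted as measured only through WT, which raised the share of this list. Their summed intensity came to 7325 for WT, 2023 for AireKO and 3994 for Sirt1cKO. S100a8, Ly6g and Ltf, which lead this list, are also products of epithelium or members of other lists above. The granule genes Ngp, at 8.56, 6.18 and 7.63, Mpo, at 8.25, 6.49 and 7.11, and Epx, at 7.94, 6.11 and 6.77, were lower as well, while the receptors Csf3r and Cxcr2 were within background in WT, at 5.79 and 4.98, as in AireKO, at 6.17 and 5.02. Mpo, Epx, Csf3r and Cxcr2 were chosen after their values were seen. Whether granulocytes or epithelium gave this signal was not tested.

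The higher genes were fewer and less alike. After H2-Ea, the largest increase was in Il4, a T helper cytokine, at 6.54 in WT, 10.25 in AireKO and 6.80 in Sirt1cKO, a difference of 3.71. Ccnb1ip1, a meiotic recombination gene, stood at 6.15, 9.51 and 6.28. Acot12, an acetyl-CoA hydrolase, stood at 6.97, 9.77 and 7.01, and Glipr1 at 7.83, 10.67 and 8.03. In these 4 genes AireKO was high and the other libraries were alike. In contrast, Epyc, a small cartilage proteoglycan, stood at 7.57, 10.69 and 9.14, Tafa1, a secreted neural peptide, at 8.84, 11.75 and 10.04, and Syndig1, a synaptic membrane protein, at 7.63, 10.20 and 8.96, with Sirt1cKO between the others. Pln, the regulator of the muscle calcium pump, and Dusp15, a phosphatase, stood at 7.80, 10.57 and 8.64 and at 8.26, 10.92 and 8.83. Stap1, an adaptor of B cells, and S100a5, a calcium-binding protein of olfactory neurons, stood at 7.51, 9.93 and 8.05 and at 7.21, 9.57 and 7.72.

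Effector and innate-like T cell genes held the largest share of higher members among the lists with 10 or more measured members. This was 5 of 13 measured (38.5%), of 20 on the array, again 5 after loess, against 2.35% of all measured genes. Beside Il4, Ctla4, an inhibitory receptor, stood at 6.53 in WT, 9.10 in AireKO and 6.96 in Sirt1cKO, and Ifng, interferon gamma, at 6.58, 8.37 and 6.29. Il4, Ctla4 and Ifng lay below 6.81 in WT and counted as measured only through AireKO, which raised the share of this list. Il2ra, an interleukin receptor chain, stood at 10.41, 11.66 and 10.85, and Zbtb16, the factor of innate-like T cells, at 7.49, 8.54 and 7.71. In none of the 5 did Sirt1cKO differ from WT by 2-fold. Genes of the T cell receptor complex did not differ in the same way. Cd3e stood at 7.51, 7.47 and 7.79, Cd3g at 7.93, 8.48 and 8.38, and Cd3d was within background in all 3 libraries. Thymocyte markers were called in 0 of 15 measured of 22 on the array, and their summed intensity was 3320, 3865 and 3765. Ptprc, which encodes CD45, stood at 7.77, 7.64 and 7.66. The part of carried-over T cells in the higher cytokine genes was not tested.

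Fibroblast markers were higher in 2 of 9 measured of 13 on the array and lower in 1. Dcn, decorin, stood at 10.08 in WT, 11.98 in AireKO and 10.87 in Sirt1cKO, and Postn, periostin, at 7.10, 8.70 and 7.82. The collagen gene Col1a1 stood at 8.18, 8.02 and 7.82, and Pdgfra was within background in all 3. The list's summed intensity was 2888, 6165 and 3699, mostly through Dcn. Collagen and matrix genes as a whole were higher in 3 of 46 (6.52%) and lower in 2, the latter including Sparc, a matrix-binding glycoprotein, 4.77-fold lower at 7.74 in AireKO.

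Membrane receptors and channels had shares of higher members above the 2.35% of all measured genes. Receptors of the G protein coupled class outside smell and pheromone sensing were higher in 7 of 79 (8.86%), again 7 after loess, and lower in 3, while 36 of the 79 were below WT and the median was 0.05. Sstr2, a somatostatin receptor, stood at 6.57 in WT, 7.89 in AireKO and 6.60 in Sirt1cKO, and counted as measured only through AireKO. Genes of the voltage-gated ion channel list were higher in 4 of 46 (8.70%), or 3 after loess, and lower in 1. The list also held Kcnj3, an inward rectifier gated by G proteins, which was among the higher members. Of the 46 channel genes 23 were below WT. Snap25, of the synaptic vesicle fusion machinery, stood at 7.32, 9.20 and 8.01.

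The dimmest receptor families were above WT nearly throughout. Olfactory receptors define the background here, so their values restate its height in AireKO. Of 1021 autosomal olfactory receptor genes, 1007 were above WT in AireKO, with a median difference of 0.71, although 61 were measured and 26 called higher. With the AireKO background used for both libraries, 2 were called. Bitter taste receptors, which mark tuft cells, were above WT in 34 of 34 genes with a median of 0.90, or 0.63 after loess, against 0.40 for olfactory receptors after loess. Of the 34 bitter receptors 12 were measured and 5 called higher, or 1 with the common background. The cause was not tested. The common background lowered the count of all higher genes from 284 to 195 (1.62%), and 903 were lower as before. Among the named genes with WT within background, the bounds were therefore small: Tas2r110 was at least 3.30-fold, Gabra4 at least 3.00-fold and Zfp979 at least 2.96-fold higher.

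Called genes lay next to each other more often than measured genes in general. Of the 903 lower genes, 181 (20.0%) had a lower gene as the next measured gene on the chromosome, while 14.2% of all measured genes lay next to a lower gene. Of the 284 higher genes, 45 (15.8%) had a higher neighbour, against 4.54% of all. Among the 258 higher genes that are not olfactory receptors, 29 had one, with olfactory receptors still counted as neighbours. There were 13 runs of 3 or more lower genes and 4 such runs of higher genes, the longest of 4 genes. Each run of higher genes held olfactory receptors or predicted genes. These shares were not tested, since gene families with shared sequence lie side by side.

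Of the lower runs, 6 held mostly members of a single family. On chromosome 15, Ly6d, Ly6g6g and Ly6k formed a run, and Ly6e, Ly6i, Ly6a2 and Ly6g another. Ly6d, a marker of stratified epithelium, stood at 12.02 in WT, 10.37 in AireKO and 11.93 in Sirt1cKO, and Ly6e at 13.24, 12.05 and 13.10. On chromosome 17 the trefoil genes Tff1, at 10.24, 8.45 and 9.31, Tff2, at 8.87, 7.42 and 8.21, and Tff3 lay beside the sterol transporter gene Abcg1, at 10.11, 8.78 and 9.32. On chromosome 2 a run of Bpifa2, Bpifa1, Bpifa5 and Bpifb1, secreted proteins of airway and saliva, was lower. Bpifb1 stood at 9.17, 5.87 and 9.32, so that it was lost in AireKO alone. Klk14, Klk13 and Klk10, serine proteases of skin and glands, formed a run on chromosome 7, and Gstm6, Gstm3 and Gstm2, glutathione transferases, on chromosome 3. In the Gstm, Klk and Ly6 runs probes may be shared between close copies.

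Other lower runs joined unrelated genes. Notch2, Reg4, Phgdh and Hsd3b6 followed each other on chromosome 3. Phgdh, the entry enzyme of serine synthesis, stood at 9.42 in WT, 8.24 in AireKO and 8.05 in Sirt1cKO, and the gut lectin gene Reg4 at 8.25, 6.34 and 6.53, the AireKO value of Reg4 being within background. Both were about as low in Sirt1cKO as in AireKO. On chromosome 8 Lpl, Slc18a1 and Atp6v1b2 and on chromosome 10 Tspan31, Os9 and B4galnt1 were lower.

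**Figure D4:**
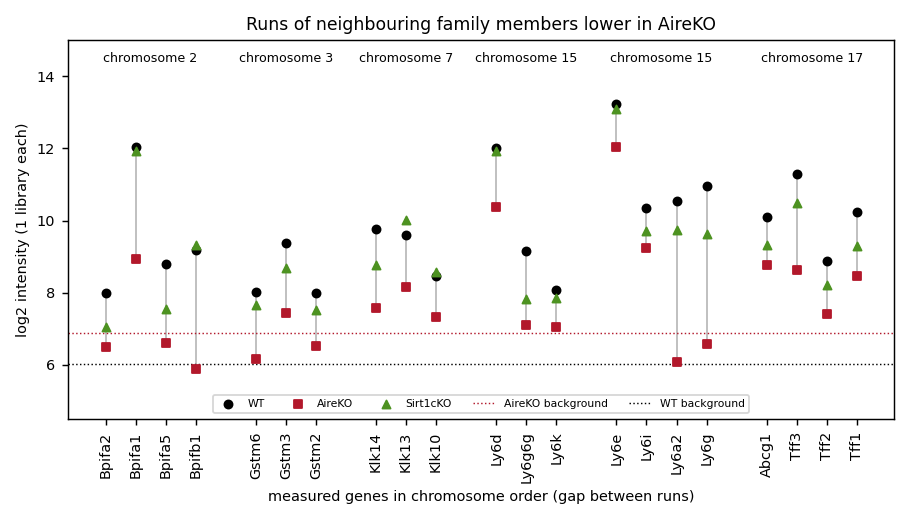
Log2 intensity (y axis) of neighbouring genes in the 6 family runs, in chromosome order (x axis), 1 library each, with WT as circles, AireKO as squares and Sirt1cKO as triangles. AireKO is lowest for every gene shown, and Klk13, Klk10 and Bpifb1 were higher in Sirt1cKO than in WT.

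By chromosome, the share of lower genes ran from 4.54% on chromosome 14 to 62 of 619 genes on chromosome 3, and that of higher genes from 0.696% on chromosome 19 to 4.28% on chromosome 1. Chromosome 10, which carries Aire, held 8 of the 50 largest increases, as many as any chromosome held. The share of higher genes was larger on chromosomes 1, 16 (3.41%) and 17 (3.32%). Of the 592 measured genes on chromosome 10, 19 were higher (3.21%), against 2.35% of all, and 57 were lower (9.63%), against 7.48%. Its genes at least 3-fold higher were Epyc, Pln, Glipr1, Dcn, Ifng, the brain lipid-binding gene Fabp7, the muscle gene Trdn and Mtres1. Fabp7 stood at 10.29 in WT, 11.97 in AireKO and 10.75 in Sirt1cKO, Trdn at 8.17, 10.45 and 9.41, and Mtres1 at 7.90, 9.78 and 8.83. Trdn and Mtres1 were named after their values were seen. Whether sequence carried along with the Aire allele contributes on this chromosome was not tested.

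The promoter stretches printed above come from windows of 250 bases before to 50 after the start, which RefSeq sequence gave for 9568 of the 12074 measured genes (79.2%), 718 of them lower and 208 higher. Among lower genes 42 of 718 (5.85%) held TATAAA on the gene's strand lying 45 to 15 bases before the start. The share was 4 of 208 (1.92%) for higher genes, 170 of 8642 (1.97%) for genes not called and 2.36% over all 27025 genes of the promoter table. Genes at least 4-fold lower held it in 8 of 59 (13.6%), and the genes lower after loess in 32 of 476 (6.72%). Anywhere in the window and on either strand, the letters were present in 86 of 718 lower genes, 30 of 208 higher genes, 7.89% of genes not called and 14.2% of the whole table.

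Promoters of lower genes also held fewer CG dinucleotides. A window with at most 5 of them in its 300 bases is called CG-poor here, a feature common among tissue-restricted genes. CG-poor windows made up 22.6% of lower genes, 54.2% of those at least 4-fold lower and 13.0% of genes not called. Higher genes were CG-poor in 43.3%, or 36.9% without olfactory receptors. Within CG-poor windows 14.8% of lower and 6.84% of uncalled genes held TATAAA near the start. Both shares were greater among lower than among uncalled genes in each of the 5 brightness classes. In the brightest class 4.46% of 224 lower and 2.46% of 1666 uncalled genes held the letters. These are descriptions of the windows, with no test, and a match is not a binding site.

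**Figure D5:**
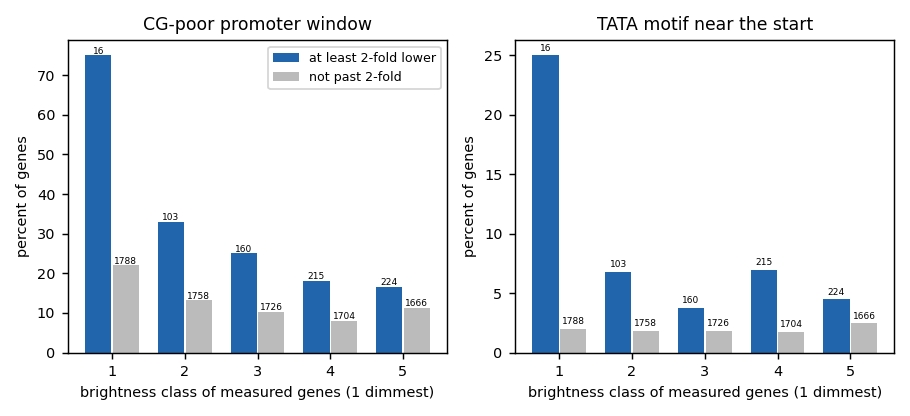
Percent of measured genes (y axis) whose promoter window was CG-poor (left) or held the TATA motif near the start (right), by class of mean brightness (x axis, 1 dimmest), for genes at least 2-fold lower in AireKO (blue) and genes not past 2-fold (grey). Numbers over the bars are genes. The blue bar is above the grey bar in each class, and the dimmest class holds 16 lower genes.

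For the interferon response genes the letters searched were GAAANNGAAA on either strand, the core of the element read by interferon-activated factors. They were found in 14 of 28 measured members with a window (50.0%), in 3 of the 8 lower ones, and in 3.00% of all measured genes and 3.49% of the whole table. The lower members with the letters were Ifit3, Stat2 and Rsad2, an antiviral enzyme. Their stretches are shown with the match, which lies on the opposite strand and so reads TTTCNNTTTC, in capitals and 20 bases on each side.

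Ifit3 (chr19:34583387-34583436, plus strand): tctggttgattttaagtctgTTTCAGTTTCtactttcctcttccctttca
Stat2 (chr10:128270256-128270305, plus strand): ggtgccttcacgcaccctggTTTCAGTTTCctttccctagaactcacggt
Rsad2 (chr12:26456543-26456592, minus strand): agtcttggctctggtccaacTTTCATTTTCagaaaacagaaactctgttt

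The match began 122 bases before the start in Ifit3, 222 in Stat2 and 120 in Rsad2, and Ifit3 held a further match. Ifit1, with matches of the same kind, differed by 0.41 and was not called, so the letters did not sort the lower from the other members of this list.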

How the data were processed

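Per the labels, RNA of sorted cells was amplified and hybridised to Affymetrix Mouse Gene 1-ST arrays. The authors deposited 1 linear-scale intensity per probe set. Per the submitters' processing notes RMA was used, with version, software and annotation not given in the sources used here. The number of arrays limits the precision.

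Log2 was taken with no further normalization. The array held 34760 probe sets, 21640 of them with 1 gene symbol, 1321 with several and 11799 with none listed. Entrez identifiers of 99.6% matched a GRCm38.p6 RefSeq table and 0 symbols changed. The probe set with the highest mean stood for its gene. Background came from 1027 olfactory receptor genes. Named genes were Foxn1, Aire and Sirt1, the 12 largest increases and 12 largest decreases above background, the 8 largest of each with a library within background, up to 4 members of each of 73 lists, and genes in runs of 3 or more, without predicted genes, small RNAs and receptor segments. Genes of called sets and markers named beyond this rule were chosen after their values were seen. Members and lists were chosen with earlier results of these data known.

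Alternatives were quantile, loess (span 0.3) and median scalings, other filters, probe-set rules, backgrounds and thresholds, exchanged labels, and X and Y genes kept. Python 3.11.15, numpy 2.4.6, pandas 2.3.3, statsmodels 0.14.6 and matplotlib 3.10.9 were used, and the counting was tested on simulated data.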

Additional observations from a re-analysis of the deposited data

How the results depend on the processing

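The count of 903 lower and 284 higher genes stayed within 1.5 times under quantile normalization, loess, other filters, other probe-set rules, a common background, no lower bounds, and X and Y genes kept. It moved to 438 and 702 with median centring, 529 and 541 with a median difference of 0, 2631 and 1015 at 1.5-fold, 183 and 63 at 3-fold, and 187 and 81 with the labels exchanged. Except for the thresholds and the labels, the cause was not tested. Some of the alternatives could not move the counts. A gene called past 2-fold from the background is bright enough to be measured, so leaving the filter out gave 903 and 284 again. The common background is that of AireKO, so the 903 lower genes were bound to stay. Of 262 named genes past 2-fold, 59 missed it after loess, 44 after quantile normalization, 85 after centring and 66 with a median difference of 0, all with the direction kept. The kept direction carries little weight, since these genes were picked as past 2-fold.

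With the labels exchanged, 202 missed it and 14 changed sign. The differences then were 0.56 for Akr1e1, 0.12 for Aldh3b2, 0.14 for Bpifb1, 0.085 for Gp2, 0.092 for Klk10, 0.42 for Klk13, 0.13 for Lce1a1, 0.64 for Lypd2, 0.28 for Psca, 0.44 for Ugt2b34, -0.29 for Ifng, -0.065 for Scn9a, -0.013 for Stxbp6 and -0.036 for Zfp979. The medians of the Ly6 and Psca family and of mimetic epithelium became 0.18 and 0.034 over members measured by the titles, against 0.10 and -0.018 over all members on the array, so the sign for mimetic epithelium depended on the members taken. No paired analysis was possible because each genotype had 1 library, and no library could be left out. Within background, decreases in AireKO are bounds only.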
